A study of Arabidopsis thaliana with 24 samples.

Results

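Transcript levels of 5 genes that loosen or modify the plant cell wall, EXPA8, EXGT-A3, TBL26, TBL38 and ATPMEPCRB, were followed across the day in Arabidopsis rosettes with and without water. Each gene has 1 probe set annotated to it, so the set is 5 of the 22810 probe sets on the Affymetrix array. Probe sets were taken by their annotated gene symbol or locus. The genes were selected on measured values of these arrays: EXPA8 was chosen by its difference between water regimes at pre-dawn and ATPMEPCRB by its difference at midnight, while the values that chose the other 3 are not recorded. For that reason the regime difference of a gene is given as a description, except for EXPA8 and ATPMEPCRB at the times that did not choose them. Where a difference given as a description is said to pass or not to pass a threshold, this describes the computed value and gives no support. Tests between times use the same arrays and can depend on this choice, so their p-values are given as a description. All plants were wild-type Col-0, grown in a 12 h photoperiod and harvested as whole rosettes at an age of 32 days. Well-watered plants had water for all 32 days, and water-limited plants had water for 28 days and none for the last 4 days. Each regime was sampled 4 times: midday stood for 12 h, late day for 18 h, midnight for 0 h and pre-dawn for 6 h. That made 8 groups of 3 arrays, 24 in all. The series design calls the arrays biological replicates. The sources used here do not say whether a sample was 1 rosette or a pool, so p-values measure the spread between these samples.

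A growing plant cell is held by a wall of cellulose fibres tied by xyloglucan and embedded in pectin. Expansins let the wall yield without cutting its polymers, and xyloglucan endotransglucosylase/hydrolases cut xyloglucan chains and join them to new partners. Acetyl groups on hemicelluloses and pectin, and methyl groups on pectin, set how these polymers pack, stick and are cut, and are added or removed by separate enzyme families. EXPA8 (AT2G40610) encodes an alpha-expansin. EXGT-A3 (AT2G01850), also called XTH27, encodes a xyloglucan endotransglucosylase/hydrolase needed for normal veins in rosette leaves. TBL26 (AT4G01080) and TBL38 (AT1G29050) belong to the TRICHOME BIREFRINGENCE-LIKE family, whose studied members mostly transfer acetyl groups to wall polysaccharides. TBL26 falls in a branch with mannan acetyltransferases, and TBL38 has been described as an enzyme that removes acetyl groups from pectin in the seed coat. ATPMEPCRB (AT4G02330), also called PME41, encodes a pectin methylesterase, which strips methyl groups from homogalacturonan.

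Values are log2 probe set levels computed by the authors, and levels of different probe sets are not compared with each other. The medians of the 24 arrays lay between 4.66 and 4.86 log2, and precision is limited by how many arrays there were. Of 14 leaf mesophyll markers 4 were named on the array, and all 4 were high on every array, from 8.27 log2 for the lowest array of LHCB4.3 to 14.6 for the highest of RCA. The root marker PYK10, the only one of 7 that was named, lay between 4.59 and 8.04 log2. The guard cell gene FMA, the only one of 4 named, lay between 5.19 and 7.28, and no flower, seed, dividing cell, xylem or senescence marker on the lists was named. In such whole-rosette RNA, fewer cells of a type and less RNA per cell cannot be told apart. Whether a probe set also binds transcripts of related genes was not tested. Water-limited pre-dawn replicate 2 stood apart: it was the nearest of its 3 arrays to the well-watered pre-dawn mean in 57.8% of the 11926 probe sets tested, against 22.3% for replicate 1 and 19.8% for replicate 3.

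The first question was how the 5 genes varied over the day in each regime. EXPA8 and EXGT-A3 were highest at late day and lowest at pre-dawn in both regimes. TBL26 ran the other way, highest at pre-dawn and lowest at late day in both. TBL38 and ATPMEPCRB had different orders of the times in the 2 regimes. Neither differed between times in water-limited plants (limma, adjusted p of 0.387 and 0.141), so their order there is not settled. TBL38 was highest at late day and ATPMEPCRB lowest at pre-dawn in both regimes. Times were compared in limma, with p adjusted by Benjamini-Hochberg over all 11926 probe sets. In well-watered plants the 4 genes at or above 5 log2 on all 24 arrays differed between times, where 49.9% of all probe sets did. ATPMEPCRB is left out of this count, because it was tested only through the group where it was high. In water-limited plants 3 of the 5 differed, EXPA8, EXGT-A3 and TBL26, where 53.6% of all probe sets did. The genes were chosen on these arrays, so nothing is read from either count. The order with late day highest and pre-dawn lowest, past the threshold of adjusted p 0.05, was held by 10.8% of probe sets under full water and 10.4% under water limitation. The reverse order of TBL26 was held by 10.7% and 11.4%.

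**Figure D1:**
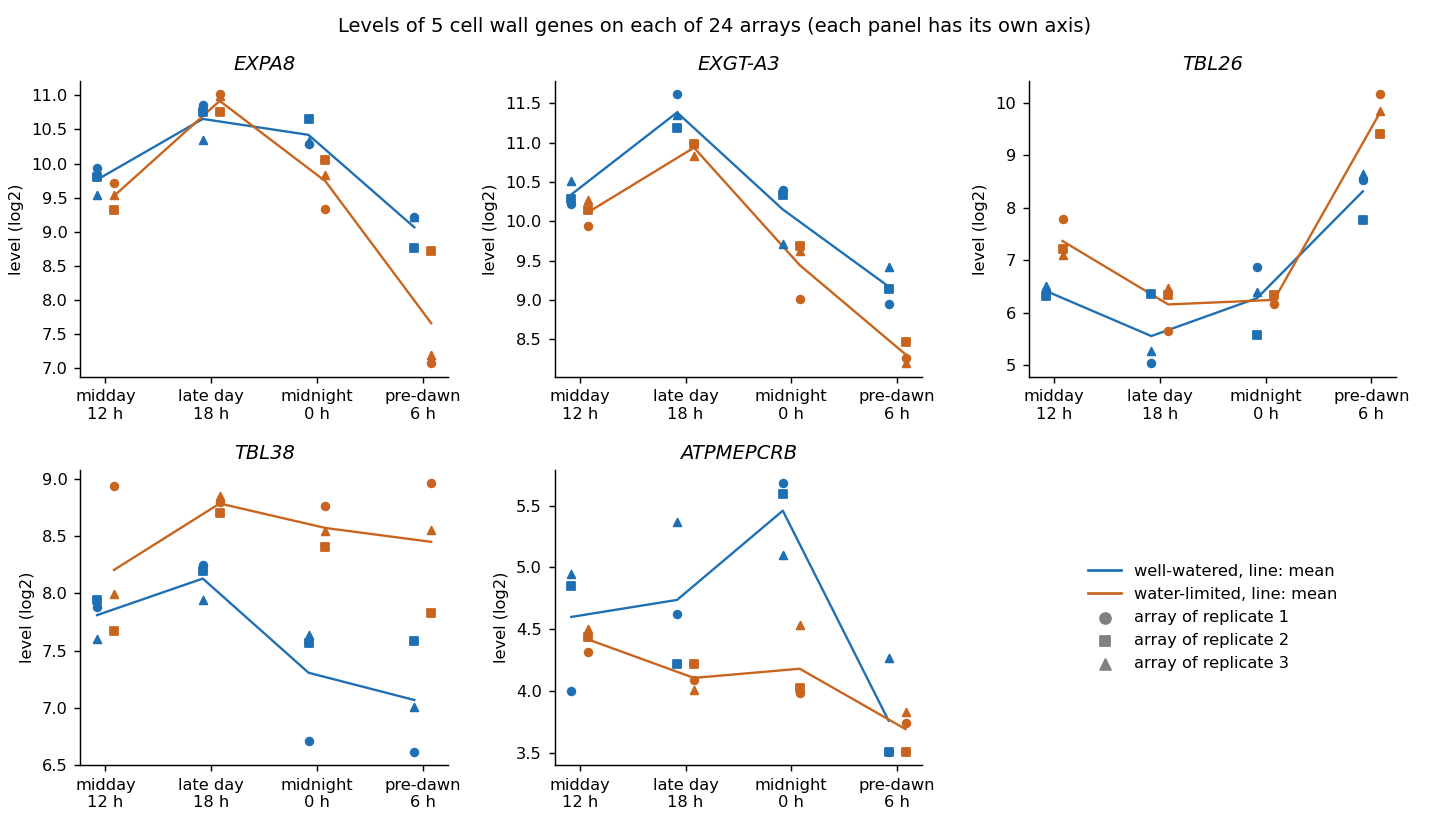
Level (log2) of each gene on each of 24 arrays at the 4 sampling times, with the hour under each name, in well-watered plants (blue) and water-limited plants (orange); each point is 1 array, the marker gives the replicate number, lines join group means and every panel has its own axis. EXPA8 and EXGT-A3 reached their lowest values at pre-dawn, TBL26 its highest, and the water-limited TBL38 arrays lay above the well-watered ones at late day, midnight and pre-dawn.

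EXPA8 at midday read 9.94, 9.81 and 9.54 log2 on the 3 well-watered arrays and 9.72, 9.32 and 9.53 on the 3 water-limited arrays. At late day the well-watered arrays read 10.85, 10.76 and 10.35 and the water-limited arrays 11.01, 10.75 and 10.99. Late day was the peak in both regimes, and the regimes overlapped at both of these times. At midnight the well-watered arrays read 10.28, 10.65 and 10.33 and the water-limited arrays 9.34, 10.05 and 9.83. At pre-dawn the well-watered arrays read 9.22, 8.77 and 9.21 and the water-limited arrays 7.07, 8.71 and 7.19. Midnight and pre-dawn had every water-limited array below every well-watered one, and at pre-dawn 2 water-limited arrays were far down while replicate 2 lay just under the lowest well-watered array.

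Between late day and pre-dawn EXPA8 fell by 1.59 log2 in well-watered plants, 3.01-fold, and by 3.26 log2 in water-limited plants, 9.60-fold (SE 0.30). Across the 4 times the test gave adjusted p = 0.000628 under full water and 1.93e-07 under water limitation. The pre-dawn arrays chose the gene by their regime difference, so the water-limited tests that include pre-dawn give no support. In well-watered plants the order was late day, midnight, midday, pre-dawn, and no neighbours in that order were separated by the test (adjusted p of 0.586, 0.113 and 0.119). In water-limited plants the order was the same, late day was above midnight by 1.18 (adjusted p = 0.00421) and midday above pre-dawn by 1.87 (adjusted p = 0.000142), while midnight and midday were not separated (difference 0.22, SE 0.30, adjusted p = 0.642). Without water-limited pre-dawn replicate 2 the SE was 0.19, and the well-watered steps from midnight to midday and from midday to pre-dawn passed as well (adjusted p of 0.0144 and 0.0149). With measures of RNA quality as covariates the water-limited step from midday to pre-dawn was 1.101 (adjusted p = 0.157).

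EXGT-A3 at midday read 10.22, 10.29 and 10.51 log2 on the well-watered arrays and 9.93, 10.14 and 10.27 on the water-limited arrays. At late day it read 11.61, 11.18 and 11.36 under full water and 10.99, 10.99 and 10.83 under water limitation. Late day was again the peak, with the water-limited arrays close together and all under the well-watered ones. At midnight it read 10.40, 10.34 and 9.71 under full water and 9.02, 9.69 and 9.62 under water limitation. At pre-dawn it read 8.94, 9.14 and 9.42 under full water and 8.27, 8.46 and 8.19 under water limitation. The regimes overlapped at midday alone, and at midnight the groups were separated by only 0.02 log2 because well-watered replicate 3 was low.

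From late day to pre-dawn EXGT-A3 fell by 2.21 log2 in well-watered plants, 4.63-fold, and by 2.63 log2 in water-limited plants, 6.18-fold (SE 0.20). Across the 4 times the adjusted p was 1.31e-07 for well-watered plants and 6.5e-09 for water-limited plants. The order was late day, midday, midnight, pre-dawn in both regimes. In well-watered plants the late-day level was above midday by 1.04 (adjusted p = 0.00064) and midnight above pre-dawn by 0.98 (adjusted p = 0.00124), while midday and midnight differed by 0.19 and were not separated (adjusted p = 0.521). In water-limited plants every step of the order passed, at 0.82, 0.67 and 1.13 log2 (adjusted p of 0.00552, 0.015 and 0.000266). The middle step, from midday to midnight, did not pass without water-limited midday replicate 3 or without water-limited midnight replicate 1 (highest adjusted p = 0.113), and with RNA quality covariates the first step was 0.74 (adjusted p = 0.173).

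TBL26 at midday read 6.42, 6.32 and 6.51 log2 on the well-watered arrays and 7.78, 7.22 and 7.09 on the water-limited arrays. At late day it read 5.04, 6.36 and 5.26 under full water and 5.65, 6.34 and 6.48 under water limitation. The regimes were apart at midday and overlapped at late day, where the well-watered arrays were widely spread. At midnight it read 6.87, 5.56 and 6.39 under full water and 6.16, 6.33 and 6.24 under water limitation. At pre-dawn it read 8.52, 7.77 and 8.65 under full water and 10.16, 9.41 and 9.85 under water limitation. The pre-dawn arrays were the highest of all 24 except that well-watered replicate 2 lay just under water-limited midday replicate 1, and the water-limited pre-dawn arrays lay above the well-watered ones.

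The pre-dawn level of TBL26 was above the late-day level by 2.76 log2 in well-watered plants, 6.76-fold, and by 3.65 log2 in water-limited plants, 12.5-fold (SE 0.34). For the 4 times together the adjusted p was 7.61e-06 under full water and 4.14e-08 under water limitation. Pre-dawn was above midday, the next in order, by 1.89 in well-watered (adjusted p = 0.000497) and 2.44 in water-limited plants (adjusted p = 3.02e-05). Midday, midnight and late day followed in that order. In well-watered plants these 3 were not separated, with steps of 0.14 and 0.72 (adjusted p of 0.805 and 0.108), but the second step passed without well-watered late-day replicate 2 or without well-watered midnight replicate 2 (adjusted p of 0.014 and 0.0232). In water-limited plants midday was above midnight by 1.12 (adjusted p = 0.019), a call lost when replicate 1 of either of these groups was left out (highest adjusted p = 0.0851), and midnight and late day differed by 0.09 (adjusted p = 0.87). With RNA quality covariates the water-limited step from pre-dawn to midday was 1.89 (adjusted p = 0.0732).

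TBL38 at midday read 7.88, 7.95 and 7.61 log2 on the well-watered arrays and 8.94, 7.67 and 7.999 on the water-limited arrays. At late day it read 8.25, 8.20 and 7.95 under full water and 8.80, 8.71 and 8.85 under water limitation. The midday groups overlapped through water-limited replicate 2, which was low, while at late day every water-limited array was above every well-watered one. At midnight it read 6.71, 7.57 and 7.64 under full water and 8.76, 8.41 and 8.55 under water limitation. At pre-dawn it read 6.61, 7.59 and 7.004 under full water and 8.96, 7.83 and 8.56 under water limitation. The well-watered means were lower at midnight and pre-dawn than at midday and late day, whereas the water-limited means stayed within 0.58 log2 of each other.

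In well-watered plants TBL38 had its highest mean at late day, 8.13 ± 0.16 log2 (SD, n = 3), and its lowest at pre-dawn, 7.07 ± 0.49, which are 1.06 apart (SE 0.31, 2.09-fold), and the test between times gave adjusted p = 0.026. Late day was above midnight by 0.82 (adjusted p = 0.0458) and above pre-dawn by 1.06 (adjusted p = 0.00916), and no neighbours in the order late day, midday, midnight, pre-dawn were separated (adjusted p of 0.506, 0.256 and 0.684). The call between times was lost without well-watered late-day replicate 1 or 2 or well-watered pre-dawn replicate 1 or 3 (highest adjusted p = 0.0805), with no filter on low values (0.0766) and with RNA quality covariates (0.0509). In water-limited plants the order was late day, midnight, pre-dawn, midday, the means spanned 0.58 log2 and the test did not pass (adjusted p = 0.387). None of the 6 differences between its water-limited times passed.

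ATPMEPCRB at midday read 4.00, 4.85 and 4.95 log2 on the well-watered arrays and 4.31, 4.43 and 4.50 on the water-limited arrays. At late day it read 4.63, 4.22 and 5.37 under full water and 4.09, 4.22 and 4.01 under water limitation. The well-watered arrays were more widely spread than the water-limited ones, and the regimes overlapped at both times. At midnight it read 5.68, 5.59 and 5.10 under full water and 3.98, 4.03 and 4.53 under water limitation. At pre-dawn it read 3.51, 3.51 and 4.27 under full water and 3.74, 3.51 and 3.83 under water limitation. The well-watered midnight arrays stood above all water-limited arrays of every time, and 3 pre-dawn arrays shared the lowest value of the gene.

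Only 4 of the 24 arrays of ATPMEPCRB reached 5 log2, the 3 well-watered midnight arrays and well-watered late-day replicate 3. The gene was therefore tested only because of the group where it was high, and its test between times in well-watered plants (adjusted p = 0.000338) gives no support. The other 4 genes were at or above 5 log2 on all 24 arrays. In well-watered plants the ATPMEPCRB mean was 5.46 ± 0.31 log2 at midnight, followed by late day with 4.74 ± 0.58, midday with 4.60 ± 0.52 and pre-dawn with 3.76 ± 0.44 (SD, n = 3 each), a span of 1.70 (SE 0.28). In water-limited plants it ranged over 0.73, from 4.42 ± 0.10 at midday to 3.69 ± 0.17 at pre-dawn, with midnight and late day between, and the test did not pass (adjusted p = 0.141). With the 12 water-limited arrays fitted alone it did (adjusted p = 0.0286). All 12 lay below 5 log2, so this pass rests on low levels and gives no support.

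The second question was what water limitation did to these levels at each sampling. At pre-dawn EXPA8 and EXGT-A3 were lower and TBL26 and TBL38 higher in water-limited plants, and at midnight ATPMEPCRB was lower. The arrays of the regimes were also apart for EXPA8 at midnight, EXGT-A3 and TBL38 at late day and midnight, and TBL26 at midday, differences that did not pass adjusted p 0.05. The largest differences were at pre-dawn for 4 of the 5, the exception being ATPMEPCRB. At pre-dawn 4 of the 5 genes passed adjusted p 0.05, 2 higher and 2 lower, where 7.24% of all probe sets passed (4.1% higher and 3.14% lower). At midnight 1 passed, ATPMEPCRB, where 0.386% of probe sets did. It was tested only because of its high well-watered midnight arrays, so this pass gives no support. None of the 5 passed at late day, where 0.21% of probe sets did, or at midday, where 0% did and 593 probe sets (4.97%) had an unadjusted p under 0.05. In the mean of the 4 times all 5 passed, 2 higher and 3 lower, where 10.1% of probe sets did (5.56% higher and 4.54% lower). The mean calls of EXPA8, TBL26 and ATPMEPCRB were lost in some settings, given in the last section. For the reason given at midnight, the mean call of ATPMEPCRB gives no support either. Since differences between regimes chose the genes, nothing is read from these counts of genes.

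**Figure D2:**
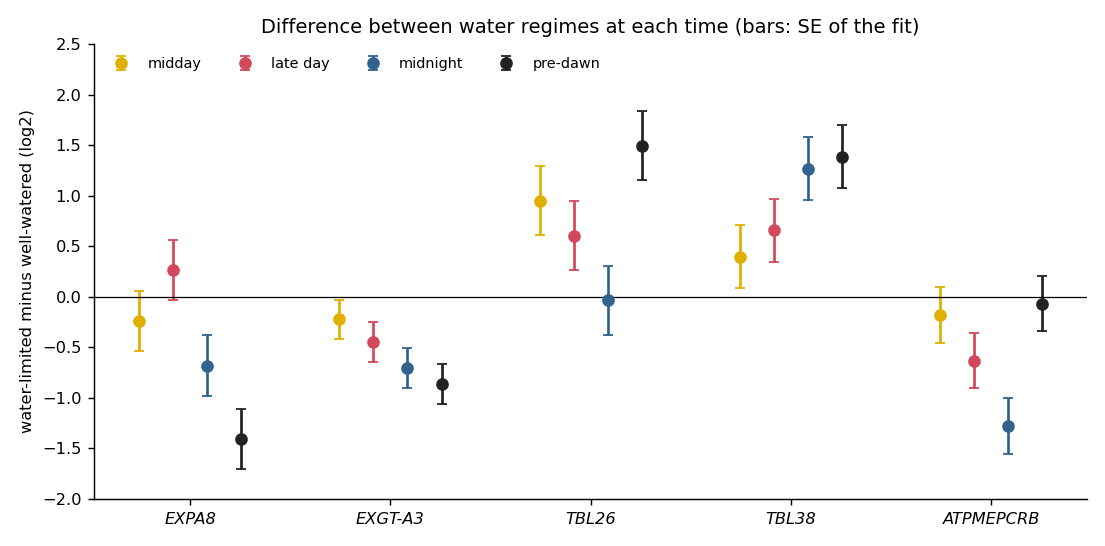
Water-limited minus well-watered level (log2) of each gene at each of the 4 times; points are differences of group means of 3 arrays and bars are the standard error from the limma fit of all 24 arrays. EXGT-A3 was below 0 and TBL38 above 0 at all 4 times, while EXPA8 went from 0.26 at late day to -1.41 at pre-dawn.

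The arrays of the regimes did not overlap for 1 of the 5 genes at midday, where the same held for 11.9% of all probe sets. Late day had 2 such genes (13.5%), midnight 4 (15.5%) and pre-dawn 4 (31.8%). EXGT-A3 was lower in water-limited plants at all 4 times, as were 11.2% of probe sets, and TBL38 was higher at all 4, as were 15.7%. The test of whether the regime difference itself varied between times passed for none of the 5 (adjusted p of 0.281 for EXPA8, 0.632 for EXGT-A3, 0.444 for TBL26, 0.59 for TBL38 and 0.418 for ATPMEPCRB), and for 6 probe sets in all (0.0503%). A difference seen at one time and not at another is therefore not shown to depend on the time.

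EXPA8 at pre-dawn averaged 9.06 ± 0.26 log2 on the well-watered arrays and 7.66 ± 0.92 on the water-limited ones (SD, n = 3), a difference of -1.41 (SE 0.30), 2.65-fold lower. The groups were 0.05 log2 apart, and the large SD came from water-limited replicate 2, without which the difference was -1.94. Leaving out water-limited replicate 1 gave -1.11, water-limited replicate 3 gave -1.17 and well-watered replicate 1 gave -1.33, and in these 3 cases it no longer passed. At the other times, which did not choose the gene, EXPA8 was tested. At midnight the difference was -0.68 (SE 0.30, 1.60-fold, adjusted p = 0.321), at midday the difference was -0.24 (adjusted p = 0.999) and at late day 0.26 (adjusted p = 0.852). None of these passed, although the midnight arrays did not overlap.

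EXGT-A3 at pre-dawn averaged 9.17 ± 0.24 log2 on the well-watered arrays and 8.31 ± 0.14 on the water-limited ones (SD, n = 3), a difference of -0.86 (SE 0.20), 1.82-fold lower. It was -0.71 at midnight, -0.45 at late day and -0.22 at midday, and it averaged -0.56 over the 4 times (SE 0.10, 1.47-fold lower). The pre-dawn difference ranged from -0.98 to -0.74 with any 1 array left out and was -0.94 without water-limited pre-dawn replicate 2. It no longer passed without well-watered replicate 3, water-limited replicate 1 or water-limited replicate 3 of pre-dawn, and the midnight difference passed without well-watered midnight replicate 3 (-0.93).

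TBL26 at pre-dawn averaged 8.31 ± 0.48 log2 on the well-watered arrays and 9.80 ± 0.37 on the water-limited ones (SD, n = 3), a difference of 1.49 (SE 0.34), 2.82-fold higher. At midday the difference was 0.95 (1.93-fold, arrays 0.58 log2 apart), at late day 0.60 with overlap, and at midnight -0.03. The midnight difference had no settled sign, from -0.39 to 0.26 with 1 array left out. The pre-dawn difference was 1.69 without water-limited replicate 2 and 1.22 at its lowest, and no longer passed without water-limited replicate 1 or 3.

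TBL38 at pre-dawn averaged 7.07 ± 0.49 log2 on the well-watered arrays and 8.45 ± 0.57 on the water-limited ones (SD, n = 3), a difference of 1.38 (SE 0.31), 2.61-fold higher. At midnight the means were 7.31 ± 0.52 and 8.57 ± 0.18, a difference of 1.27 (2.40-fold), and at late day 8.13 ± 0.16 and 8.79 ± 0.07, a difference of 0.66 (1.58-fold). At midday it was 0.40 with overlap. Over the 4 times it averaged 0.93 (SE 0.16, 1.90-fold higher). The pre-dawn difference was 1.69 without water-limited replicate 2, and it no longer passed without replicate 1 or 3 of either regime. The midnight difference passed without water-limited midday replicate 1 or without water-limited pre-dawn replicate 2, where its SE was 0.27 and 0.29 in place of 0.31.

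ATPMEPCRB at midnight averaged 5.46 ± 0.31 log2 on the well-watered arrays and 4.18 ± 0.31 on the water-limited ones (SD, n = 3), a difference of -1.28 (SE 0.28), 2.43-fold lower. It ranged from -1.46 to -1.17 with 1 array left out and no longer passed when any 1 of 13 arrays was left out, or with no filter on low values (adjusted p = 0.116). The gene was tested only through its well-watered midnight arrays, so its pass at midnight or in the mean gives no support. The times that did not choose the gene were tested. At late day the difference was -0.63 (SE 0.28, adjusted p = 0.496), and 1 well-watered array overlapped the water-limited ones by less than 0.01 log2. At midday it was -0.18 (adjusted p = 0.999) and at pre-dawn -0.07 (adjusted p = 0.909), where the sign changed with 1 array left out (-0.20 to 0.18).

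**Figure D3:**
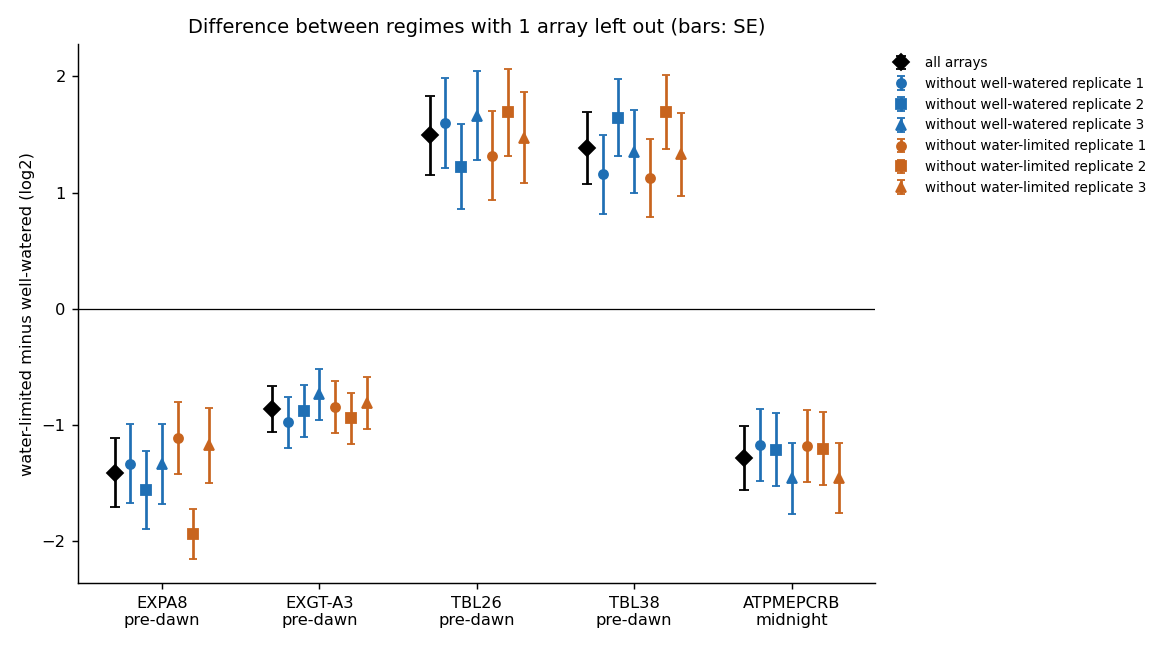
Water-limited minus well-watered level (log2) of each gene at the time named below it, with all arrays (black diamond) and with each of the 6 arrays of that time left out in turn; bars are standard errors from the fit. All differences kept their sign, and EXPA8 moved from -1.41 to -1.94 without water-limited pre-dawn replicate 2.

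Of 3 measures of RNA quality, 1 separated the regimes at pre-dawn. The GAPDH control probe sets for the 3-prime end minus those for the 5-prime end lay between 1.58 and 1.64 log2 on the water-limited pre-dawn arrays and between 1.31 and 1.48 on the well-watered ones, with no overlap. The same measure for actin (4.40 to 4.72 against 4.34 to 4.44) and for ubiquitin (1.06 to 1.14 against 1.11 to 1.23) overlapped, with ubiquitin on the lower side in water-limited plants. At late day GAPDH (1.504 to 1.747 against 1.262 to 1.456) and actin (4.02 to 4.25 against 3.80 to 3.93) did not overlap, and at midnight all 3 did (GAPDH 1.49 to 1.60 against 1.39 to 1.64). With the differences of GAPDH, actin and ubiquitin as covariates the pre-dawn differences were -1.08 for EXPA8, -0.83 for EXGT-A3, 1.20 for TBL26 and 1.17 for TBL38, all with the same sign, and none of the 4 passed (adjusted p of 0.142, 0.112, 0.181 and 0.166). The midnight difference of ATPMEPCRB was -1.33, in place of -1.28.

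Markers of leaf cell types also moved with the regimes at pre-dawn. Of the 4 mesophyll markers named, LHCB4.2 fell by 0.57 (adjusted p = 0.0364, limma) and LHCB4.3 rose by 0.66 (adjusted p = 0.0189), both chlorophyll-binding proteins of photosystem antennae, while LHCB4.1 at -0.29 (adjusted p = 0.186) and RCA at 0.01 (adjusted p = 0.978) did not pass. The summed level of the 4, on a log2 scale, lay between 14.84 and 14.86 on the water-limited pre-dawn arrays and between 14.98 and 15.08 on the well-watered ones, with no overlap. At late day the sums did not overlap either (15.4467 to 15.6429 water-limited against 15.6441 to 15.7165 well-watered), while at midday and midnight they did. None of the 4 markers passed on its own at the other times. The guard cell gene FMA differed by 0.79 at pre-dawn (adjusted p = 0.0532) and the root gene PYK10 by -0.39 (adjusted p = 0.73). The part of RNA quality and of cell composition in the differences of the 5 genes was not tested.

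The third question was what other cell wall genes did on the same arrays. From 9 lists of wall genes matched by symbol, 91 probe sets were named and 40 tested, 35 of them besides the 5 genes. The lists of wall glycosidases and of wall structural proteins had no tested probe set, and the latter had none named. Many probe sets carry no gene name here (8730 of 22746), so the lists are not a full survey of wall genes. Most of the 35 were not past the threshold between regimes. At pre-dawn 2 were higher and 1 lower, where 4.1% and 3.14% of all probe sets were, and their median difference was 0.03, as it was over all probe sets. In the mean of the 4 times 6 were higher and 2 lower, where 5.56% and 4.54% of all probe sets were, with a median of 0.09 against 0.01. At midday, late day and midnight none of the 35 passed. Between times 20 of the 35 differed under full water, where 49.9% of all probe sets did, and 25 under water limitation, where 53.6% did. The probe sets higher at pre-dawn were both of 1 gene, TBL40, and both were again among those higher in the mean. The lists were chosen with earlier results of these data known, so nothing is read from these counts.

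**Figure D4:**
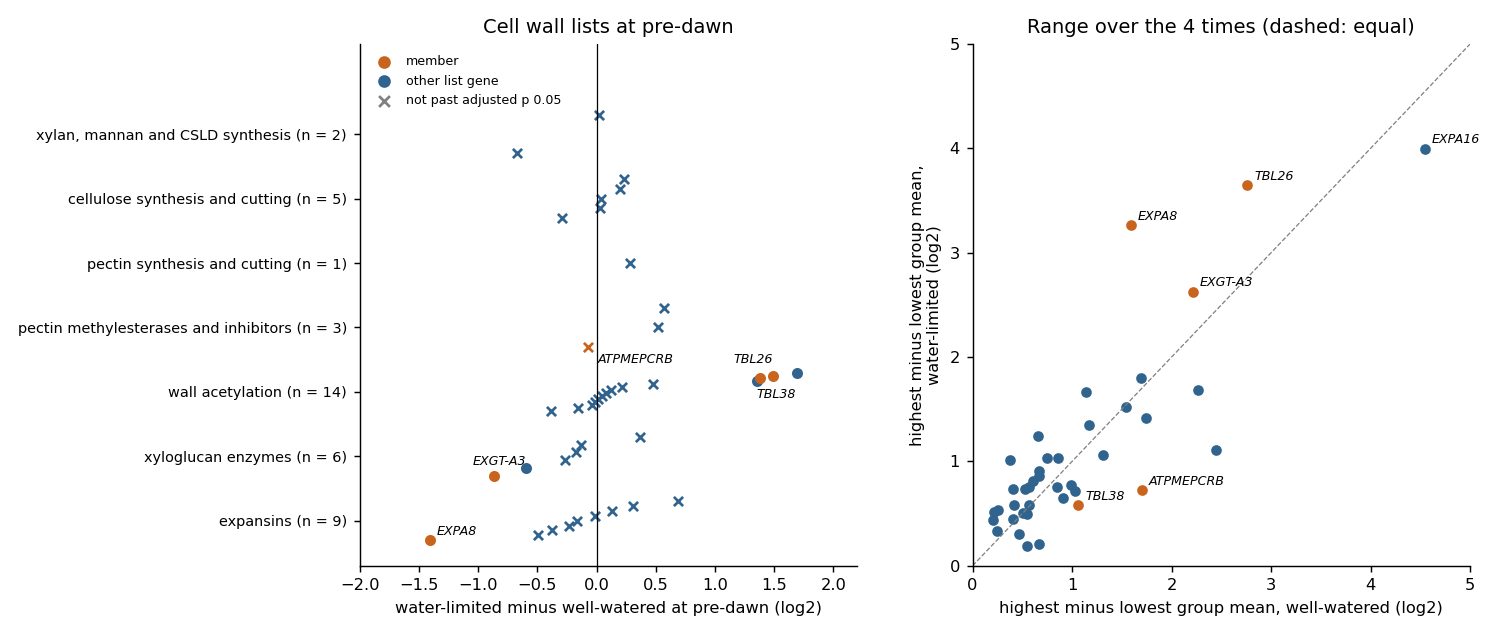
Left, water-limited minus well-watered level (log2) at pre-dawn for each tested probe set of the cell wall lists, with dots for adjusted p under 0.05 and crosses for the rest; right, the range of group means over the 4 times (log2) in well-watered and water-limited plants, with a dashed line where both are equal. The acetylation genes TBL26, TBL38 and both probe sets of TBL40 lay apart on the right of the left panel, and EXPA16 and TBL26 had the widest ranges in well-watered plants.

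Of 14 tested probe sets for wall acetylation, 4 were higher at pre-dawn and none lower, where 4.1% of all probe sets were higher: those of TBL26 and TBL38 and both probe sets of TBL40 (AT2G31110), another member of the same family. TBL26 and TBL38 were chosen on these arrays and the other 2 probe sets belong to 1 gene, so nothing is read from the count. The first TBL40 probe set read 5.14, 5.73 and 5.85 log2 under full water and 7.88, 6.23 and 7.70 under water limitation at pre-dawn. It rose by 1.70 (adjusted p = 0.00476, n = 3 arrays a group, limma), and the second rose by 1.35 (adjusted p = 0.0139). As for TBL26 and TBL38, replicate 2 was the lowest of the water-limited arrays, and neither TBL40 probe set passed without water-limited replicate 1 (adjusted p of 0.0541 and 0.11) or with RNA quality covariates (0.121 and 0.159). Neither passed with the pre-dawn arrays fitted alone (0.0805 and 0.0846). The second was also lost without well-watered replicate 1 (0.0605) or water-limited replicate 3 (0.118). Both were highest at late day in both regimes. The other 10 acetylation probe sets lay between -0.39 for TBL25 and 0.48 for TBL32 and did not pass. In the mean of the times TBL37 fell by 0.50 (adjusted p = 0.0209), a call lost with no filter on low values (0.0571) and with RNA quality covariates (0.0885). Both TBL40 probe sets were higher in that mean, by 0.81 and 0.51 (adjusted p of 0.00344 and 0.0417). The second call was lost when any 1 of 17 arrays was left out, with no filter (0.109) or with median centring (0.0505), and both were lost with the covariates (0.0664 and 0.208).

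EXPA8, chosen by this difference, was the only one of 9 tested expansin probe sets past the threshold at pre-dawn; the other 8 lay between -0.49 for EXLA1 and 0.68 for EXLB1. In the mean of the times the expansin-like gene EXLB1 rose by 0.70 (adjusted p = 0.0213) and the beta-expansin EXPB3 by 0.35 (adjusted p = 0.0472). The EXLB1 call was lost with no filter (0.066) and with RNA quality covariates (difference 0.55, adjusted p = 0.13). The EXPB3 call was lost when any 1 of 17 arrays was left out, with no filter (0.102), with median centring (0.0721) and with quantile normalization (0.0505). EXPA16, an alpha-expansin, had the widest range over the day of all tested wall probe sets. Its well-watered means were 7.13 log2 (midday), 7.34 (late day), 2.79 (midnight) and 5.02 (pre-dawn), and its water-limited means 7.05, 6.52, 3.06 and 4.64. It differed between times in both regimes (adjusted p of 7.21e-10 and 7.28e-09). Its midnight value was the same 3.06 on 4 of 6 arrays, near the low end of the table, so midnight is given only as a low level and the size of the span is not compared between regimes. EXLB1 also had its lowest level at midnight, 6.49 ± 0.24 log2 under full water and 7.91 ± 0.20 under water limitation (SD, n = 3).

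Of 6 tested xyloglucan probe sets, 2 were lower at pre-dawn, where 3.14% of all probe sets were, and none higher. They were EXGT-A3, one of the 5 genes, and CSLC04, which makes the glucan backbone of xyloglucan. EXGT-A3 was chosen on these arrays, so nothing is read from this count. CSLC04 fell by 0.60 (adjusted p = 0.0323), a call lost without replicate 1 or 3 of either regime at pre-dawn (highest adjusted p = 0.212). It was also lost with the pre-dawn arrays fitted alone (0.109). All 6 xyloglucan probe sets differed between times in water-limited and 4 in well-watered plants. Among 3 tested pectin methylesterase probe sets, PME61 rose by 0.45 in the mean of the times (adjusted p = 0.00646), opposite in sign to ATPMEPCRB at -0.54, and PMEPCRF was not past the threshold (0.24, adjusted p = 0.115). GAUT15, a gene of a family that builds the pectin backbone, rose by 0.33 (adjusted p = 0.0253, lost when any 1 of 6 arrays was left out), and CSLA03, of the family that makes glucomannan, fell by 0.43 in the mean of the times (adjusted p = 0.0292, lost when any 1 of 8 arrays was left out). With RNA quality covariates CSLC04, GAUT15 and CSLA03 no longer passed (adjusted p of 0.264, 0.138 and 0.192), nor did CSLA03 with no filter (0.0701). None of 5 tested cellulose synthesis and cutting genes passed between regimes.

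The genes with the most similar profile over the 8 group means were found by Pearson r among 6293 tested probe sets with exactly 1 gene, as a description. The arrays of a group are shared by all probe sets. For EXPA8 the closest were AT3G06070 (r = 0.988), AT3G47560 (0.983) and AT1G09160 (0.978), and for EXGT-A3 they were AT3G49790 (0.997), TROL (0.991) and AT2G03750 (0.980). TBL26 was most like AT1G18720 (0.984), CRR42 (0.976) and TPI (0.975), and TBL38 most like AT1G67865 (0.988), AT2G04570 (0.977) and AT5G19070 (0.976). For ATPMEPCRB the highest was AT3G15070 at 0.946, and no probe set reached 0.95, a value that 48 probe sets reached for EXGT-A3 and 24 for EXPA8. None of the 5 genes was among the 3 closest to another of the 5.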

How the data were processed

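The deposited table holds 1 log2 value per probe set and array, made by the authors; the submitters' processing notes name GCRMA, and the sources used here do not give its version. Trizol RNA was, per the labels' protocols, labelled with biotin in a one-cycle assay. The lowest value was 2.20 log2 and 25.5% of values lay at this floor. The values were used as deposited.

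After 64 control probe sets were left out, 11926 of 22746 were tested, those at 5 log2 or more on at least 3 of 24 arrays. Of the 22746, 13513 are annotated to 1 gene, 503 to several and 8730 to none here; names came from the platform annotation and TAIR10.1, used for names only. limma 3.58.1 in R 4.3.3 fitted a mean for each of 8 groups with 1 shared spread (16 residual and 4.57 prior degrees of freedom). Contrasts were the regimes at each time, their mean, their variation between times, the 4 times within a regime and the 12 pairs of times, two-sided, adjusted by Benjamini-Hochberg over all probe sets of a contrast, with a threshold of 0.05.

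The genes and the wall lists were chosen with earlier results of these data known. A phosphoethanolamine methyltransferase whose symbol begins with PME was removed from the pectin list. Wall genes besides the 5 are named if past the threshold between regimes or among the 3 widest ranges over the day, for likeness the 3 highest r; the extremes of the expansin and acetylation lists, and PMEPCRF, were named after their values were seen. On simulated data the regime test at pre-dawn found 75% of 100 changes of 1 log2 and 94% of 100 changes of 2 log2, and the test between well-watered times 98% of 200 changes of 2 log2. The simulated noise was normal, with 1 spread per probe set in all groups. It held no outlying array such as water-limited pre-dawn replicate 2, so these rates need not hold for the real pre-dawn arrays. Alternatives were no filter, a mean of at least 6 log2, trend and robust moderation, median centring, quantile normalization, the replicate number as a block, covariates for RNA quality (3-prime minus 5-prime control probe sets), the compared arrays alone, and leaving out each array. Equal replicate numbers gave no sign of a pairing: of 12 pairs at 1 time, 0 had a correlation over 0.1. These correlations use deviations from means of 3 arrays, so they do not exclude a pairing.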

Additional observations from a re-analysis of the deposited data

How the results depend on the processing

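No difference changed sign where it had passed the threshold, and of the regime differences of the 5 genes only EXPA8 at pre-dawn moved by more than the spread between replicates (-1.94 without water-limited replicate 2). The numbers of probe sets past the threshold between regimes (0 at midday, 25 at late day, 46 at midnight, 864 at pre-dawn, 1205 in the mean of the times, 6 for variation between times) depended on the setting, and the cause was not tested except where fewer arrays or more probe sets entered. With no filter they were 11 at midday, 547 at pre-dawn, 763 in the mean and 37 for variation between times. With a mean of at least 6 log2, which leaves no value for ATPMEPCRB, 11 passed at late day and 29 at midnight. Median centring moved no count by over 1.5 times. Variation between times gave 11 with trend and robust moderation and 3 after quantile normalization. With the covariates 11 passed at late day, 127 at midnight, 15 at pre-dawn and 312 in the mean. With the compared arrays alone 0 passed at late day and midnight and 7 at pre-dawn, and none of the 4 genes called there passed (adjusted p of 0.0991 for EXPA8, 0.0591 for EXGT-A3, 0.0599 for TBL26 and 0.0754 for TBL38), nor did ATPMEPCRB at midnight (0.119). With the replicate block, whose pairing the correlations between arrays (-0.538 to 0.0929) do not bear out, 13 passed at late day, 8 at midnight, 199 at pre-dawn, 484 in the mean and 0 for variation between times; EXGT-A3 and TBL38 at pre-dawn (adjusted p of 0.0623 and 0.0689), ATPMEPCRB at midnight (0.153) EXPA8 in the mean (0.0873), CSLC04 at pre-dawn (0.117) and EXLB1 (0.111), EXPB3 (0.12), TBL37 (0.0776), PME61 (0.059), GAUT15 (0.0882) and CSLA03 (0.075) in the mean were then not past it. Leaving out 1 array gave 0 to 2 at midday, 11 to 33 at late day, 16 to 113 at midnight, 91 to 1793 at pre-dawn, 735 to 1698 in the mean, 0 to 211 for variation between times, 5004 to 6566 between well-watered times (5954 with all arrays) and 5525 to 6919 between water-limited times (6389). Of 412 recomputed tests between the 4 times, 405 kept their side of the threshold, and of 954 steps between neighbouring times 908 did. EXPA8 in the mean of the times was not past it when any 1 of 12 arrays was left out. The same held with no filter (limma, adjusted p = 0.0881) and with the RNA quality covariates (0.258). In that mean TBL26 was not past the threshold with the covariates (0.0929), nor was ATPMEPCRB with no filter (0.0504).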
